A study of Arabidopsis thaliana with 8 samples.

Results

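Dihydrophaseic acid (DPA), the end catabolite of abscisic acid (ABA), given for 3 h, was compared with a mock treatment in whole 10-day-old seedlings. The seedlings were wild-type (WT) Arabidopsis thaliana, Columbia accession. The comparison used the 2 DPA and the 2 mock libraries among the 8 libraries of the series and took in all 32678 gene rows of the table, leaving out 5 rows that name no gene. Of these genes, 23970 had a value above 0 in either group and carried a p-value. Seedlings of the other groups received phaseic acid (PA) or ABA, and all 3 compounds were given at 50 μM for 3 h. Each group had 2 biological replicates, and all seedlings shared the same genotype, accession and age, while the labels give no time for the mock treatment. RNA of a whole seedling mixes roots, leaves and meristems, so a change in the share of a cell type and a change in RNA per cell cannot be told apart.

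ABA is the hormone of water deficit. It is perceived by PYR/PYL receptors that, when they hold the hormone, block clade A protein phosphatases (PP2C) and so free SnRK2 kinases to drive stress genes. The hormone is removed mainly by CYP707A cytochromes P450, whose hydroxylated product closes into PA. A reductase, ABH2, then turns the ring ketone of PA into a hydroxyl group and yields DPA, which is regarded as having little hormone activity. PA keeps the ketone and DPA does not, and this is the change in structure that separates them.

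Gene reads in units of 1e6 were 11.5 to 15.9 over all 8 libraries and 12.7 to 13.5 in the 4 compared here. Values below are normalized counts, that is, reads divided by a size factor per library. Size factors were 1.00 and 0.968 in the DPA libraries, and 0.979 and 0.917 in the mock libraries. In every pair of values the library of higher size factor is given first. The labels' replicate numbers cannot be tied to these libraries. The seedling label was set beside lists of marker genes. The leaf (light harvesting and Rubisco small subunit), root, guard cell and seed storage lists each had summed reads in all 4 libraries. Not every member did, and the seed storage genes CRU2 and SESA4 had no reads with DPA. The mock pair lay apart: of the 16418 genes that averaged 50 normalized counts or more over the 8 libraries, 277 (1.69%) differed at least 2-fold between the mock libraries, against 120 (0.731%) between the DPA libraries.

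Very few transcripts differed with DPA, and those by about 2-fold or less. In the authors' deposited table, adjusted p was under 0.05 in 3 of 23970 genes (0.0125%), 2 higher with DPA (0.00834%) and 1 lower (0.00417%). The genes were AT1G15125, a methyltransferase-like gene, and AT3G15356, a legume lectin gene, both higher, and AT3G09250, a gene of the nuclear transport factor 2 family, lower. Against the same mock libraries, the authors' deposited tables called 318 of 23985 genes (1.33%) with PA and 3713 of 24069 genes (15.4%) with ABA. At an unadjusted p under 0.05, the authors' deposited table held 220 genes (0.918%) with DPA, 126 of them higher (0.526%) and 94 lower (0.392%). A limma fit to the 8 libraries called 0 of 19617 genes (0%) between DPA and mock at an adjusted p under 0.05, and 1081 (5.51%) at an unadjusted p under 0.05, 540 higher and 541 lower.

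In the 16418 genes averaging 50 or more, the log2 difference between the DPA mean and the mock mean had an SD of 0.195. The differences between libraries of the same group imply an SD of 0.207 for such a difference, so the DPA values spread no wider than replicates did. PA gave an SD of 0.348 where its libraries imply 0.201, and ABA gave 0.784 where its libraries imply 0.203. With DPA, 97.5% of the genes lay within 0.5 log2 units of mock, compared with 94.4% with PA and 75.8% with ABA. A difference of at least 2-fold was reached by 35 genes (0.213%) with DPA, 26 higher and 9 lower, by 330 genes (2.01%) with PA and by 1502 genes (9.15%) with ABA. The precision set a limit on what could be seen: the 95% interval of the DPA effect in limma reached a median of 0.82 log2 units to each side for genes with means of 10 to 50, 0.40 for 50 to 200, 0.24 for 200 to 1000 and 0.19 above 1000.

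**Figure D1:**
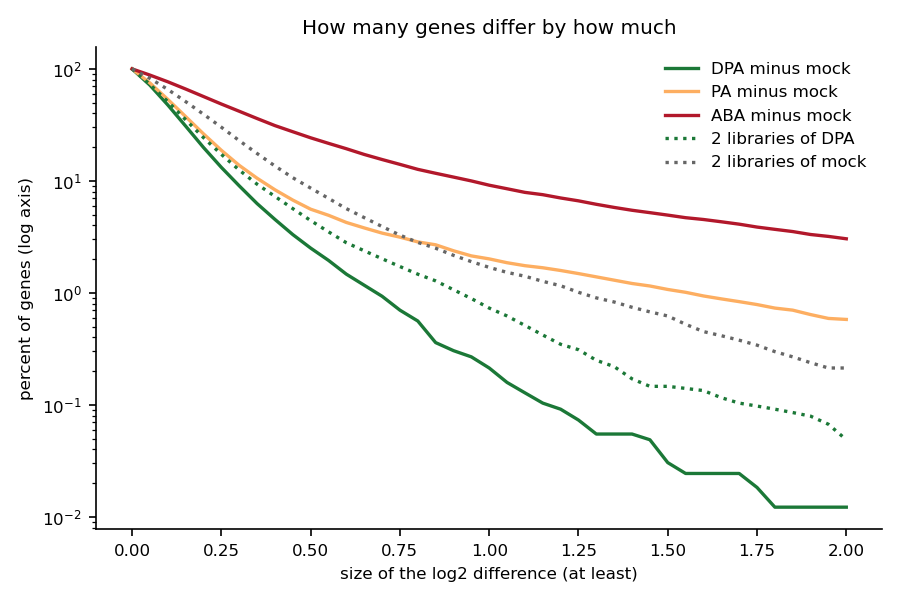
Share of the 16418 genes averaging 50 normalized counts or more (percent, log axis) whose log2 difference is at least the size on the x axis, for the group means of DPA, PA and ABA minus mock (solid lines) and between the 2 libraries of DPA and of mock (dotted lines). At a log2 difference of 1 the DPA line stands at 0.213% of genes, below the dotted lines at 0.731% between the DPA libraries and 1.69% between the mock libraries, although a mean over 2 libraries varies less than a single library.

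AT1G15125 had the smallest p of the table. It lies on chr1:5204312-5205964 and is annotated as an S-adenosyl-L-methionine-dependent methyltransferase, a class of enzymes that transfer methyl groups to small molecules or proteins. It had 1324 and 1417 normalized counts in the DPA libraries, against 757 and 578 in the mock libraries. Both DPA libraries lay well above both mock libraries. The authors' deposited table gave a log2 fold change of 1.04 (adjusted p = 2.82e-08). The limma fit gave 1.05 with a 95% interval of 0.66 to 1.44 (adjusted p = 0.874). With PA the gene had 306 and 397 normalized counts and with ABA 27.8 and 35.5, all 4 below both mock libraries. In limma the DPA level exceeded the PA level by 1.97 log2 units (adjusted p = 0.000415) and the ABA level by 5.40 log2 units (adjusted p = 5.7e-08). DPA stood above mock, and the other compounds below it. AT1G15125 shares 183 bases on the same strand with AT1G15120, which averaged 802 normalized counts with DPA and 810 in mock.

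AT3G15356, a legume lectin family gene, encodes a protein of a carbohydrate-binding fold and lies on chr3:5174402-5175523. It had 723 and 646 normalized counts in the DPA libraries, and 453 and 361 in the mock libraries. Both DPA libraries were the highest of all 8. The log2 fold change in the authors' deposited table was 0.75 (adjusted p = 0.0355), and limma gave 0.76 with a 95% interval of 0.50 to 1.02 (adjusted p = 0.874). PA libraries held 289 and 303 normalized counts and ABA libraries 419 and 415, so that DPA exceeded PA by 1.21 log2 units (limma adjusted p = 0.000777) and ABA by 0.71 log2 units (limma adjusted p = 0.00123).

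AT3G09250, of the nuclear transport factor 2 family, lies on chr3:2838943-2840614. It had 1675 and 1555 normalized counts in the DPA libraries, against 2591 and 2805 in the mock libraries. Both DPA libraries were below both mock libraries, with little spread within either pair. The limma interval also takes in the spread of the PA and ABA libraries. The authors' deposited table gave a log2 fold change of -0.74 (adjusted p = 0.000137), and limma gave -0.74 with a 95% interval of -1.37 to -0.11 (adjusted p = 0.874). The gene was uneven in the other groups, with 3853 and 1856 normalized counts with PA and 2228 and 1567 with ABA, and its DPA level was not separated from PA (limma difference of -0.73, adjusted p = 0.192) or from ABA (-0.21, adjusted p = 0.605). It shares 138 bases with PYK10, a very abundant root beta-glucosidase gene on the opposite strand. The protocol does not say that strand was kept, so reads in these bases cannot be told apart. PYK10 averaged 31224 normalized counts with DPA and 30106 in mock.

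**Figure D2:**
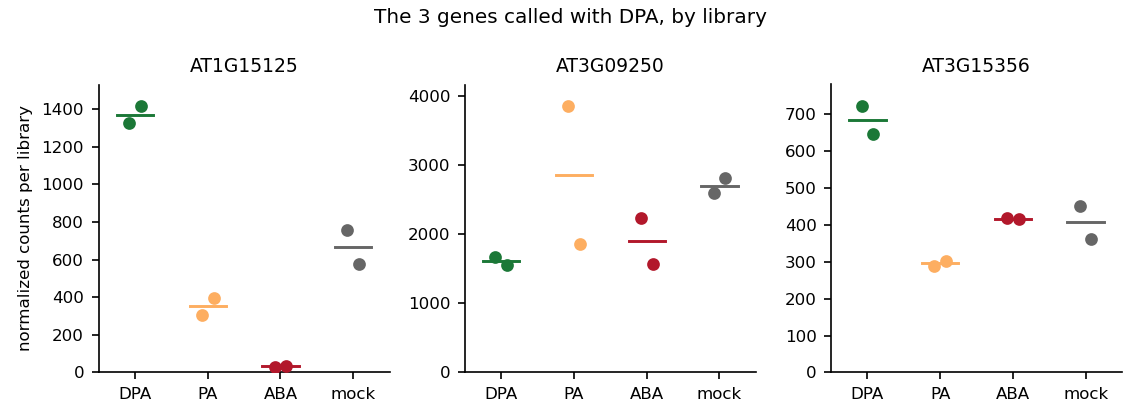
Normalized counts per library (y axis, from 0) of the 3 genes called between DPA and mock in the authors' deposited table, with 1 point per library and a bar at the mean of the 2 libraries of each group. AT1G15125 and AT3G15356 are higher in both DPA libraries (1324 and 1417, 723 and 646) than in any other library, and AT3G09250 is lower in both DPA libraries (1675 and 1555) than in both mock libraries (2591 and 2805).

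The sequences around the starts of the called genes are shown with that of RD29B, an ABA marker gene, because the ABA response element is the sequence through which ABA factors act on RD29B. Each runs from 250 bases before the annotated start to 50 bases after it, on the strand of the gene, from RefSeq (TAIR10.1 build). Capitals mark the core ACGTG on either strand (CACGT on the strand shown when it lies on the other). They lie at chr1:5204062-5204361 (plus strand) for AT1G15125, chr3:5175474-5175773 (minus strand) for AT3G15356, chr3:2838693-2838992 (plus strand) for AT3G09250 and chr5:21236771-21237070 (plus strand) for RD29B.
AT1G15125: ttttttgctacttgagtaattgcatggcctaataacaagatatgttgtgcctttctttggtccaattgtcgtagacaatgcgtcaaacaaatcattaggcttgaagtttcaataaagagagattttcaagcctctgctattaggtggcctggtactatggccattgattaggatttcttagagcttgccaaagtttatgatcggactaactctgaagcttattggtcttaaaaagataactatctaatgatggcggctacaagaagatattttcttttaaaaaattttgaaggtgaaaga
AT3G15356: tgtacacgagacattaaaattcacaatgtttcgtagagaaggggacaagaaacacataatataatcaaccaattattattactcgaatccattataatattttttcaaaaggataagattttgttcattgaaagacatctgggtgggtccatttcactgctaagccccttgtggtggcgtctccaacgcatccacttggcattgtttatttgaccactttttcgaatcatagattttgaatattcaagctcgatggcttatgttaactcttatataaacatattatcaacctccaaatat
AT3G09250: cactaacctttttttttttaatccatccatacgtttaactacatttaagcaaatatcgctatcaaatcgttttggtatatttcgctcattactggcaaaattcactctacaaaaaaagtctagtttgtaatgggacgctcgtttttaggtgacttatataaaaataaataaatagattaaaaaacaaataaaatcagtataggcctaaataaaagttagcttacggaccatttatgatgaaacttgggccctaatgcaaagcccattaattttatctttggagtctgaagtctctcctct
RD29B: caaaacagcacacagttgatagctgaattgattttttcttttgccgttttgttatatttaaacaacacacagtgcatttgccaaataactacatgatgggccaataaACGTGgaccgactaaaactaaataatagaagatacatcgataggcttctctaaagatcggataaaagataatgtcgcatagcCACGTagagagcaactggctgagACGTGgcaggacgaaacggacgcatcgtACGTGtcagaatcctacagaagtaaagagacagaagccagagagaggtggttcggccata
The core occurs 4 times in the RD29B window and 0 times in the other 3 windows. Of 27365 Arabidopsis windows of the same length, 26.7% hold it at least 1 time. TTGAC, the W box core bound by WRKY factors, occurs 1 time in the window of AT1G15125, 1 time in that of AT3G15356 and 0 times in that of AT3G09250, counted on either strand, and 50.5% of all windows hold it.

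A further 10 genes had the smallest p-values without passing the adjusted threshold, 8 of them with higher means with DPA and 2 with lower. The smallest adjusted p among them was 0.343 in the authors' deposited table, for RVE2, so they are listed as a description. They include 2 ABA receptors, PYL5 (log2 fold change of 0.79) and PYL4 (0.56), described with the receptor family. RVE2, a MYB-like factor of the circadian system on chr5:14751344-14753088, had 749 and 741 normalized counts with DPA and 1042 and 1195 in mock. Its DPA level was below ABA by 1.01 log2 units (limma adjusted p = 0.00063), and its ABA libraries held 1694 and 1323. WRKY33, a factor of defence against necrotrophic fungi, had 601 and 533 normalized counts with DPA and 424 and 342 in mock. CYP705A5, which encodes a P450 of the root triterpene thalianol, had 1057 and 978 normalized counts with DPA and 747 and 541 in mock. In these 3 genes the DPA and mock libraries did not overlap, which their choice by small p-values in the same libraries made likely. Over all 19617 genes with a mean of 10 or more, both DPA libraries lay above both mock libraries in 16.1% and below both in 17.1%.

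APC11, a subunit of the anaphase-promoting complex, had 110 and 121 normalized counts with DPA and 212 and 221 in mock. It shares 135 bases with RCI2A, a small membrane protein gene induced by cold, on the opposite strand. RCI2A had 671 and 733 normalized counts with DPA and 902 and 1180 in mock, and both genes lay lower with DPA by 0.91 and 0.57 log2 units in the authors' deposited table. AT5G01210, an acyltransferase family gene, had 1195 and 1298 normalized counts with DPA and 947 and 797 in mock. A non-coding gene, AT5G01215, covers 1785 of its 1802 bases on the other strand and had a log2 fold change of 0.42, against 0.52 for AT5G01210, in the authors' deposited table. Values within these overlaps cannot be assigned to 1 gene. AT5G35660, a glycine-rich protein gene, had 90.9 and 102 normalized counts with DPA and 26.6 and 55.6 in mock, where the mock libraries differed by 2-fold or more.

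The genes of highest fold change were picked among those averaging 50 or more over the DPA and mock libraries, with no overlap of these libraries. They came mostly with uneven libraries. AT5G54370, a LEA-like protein gene, had 104 and 92.9 normalized counts with DPA and 45.0 and 4.36 in mock. AT1G52070, a mannose-binding lectin gene, had 101 and 107 normalized counts with DPA and 50.1 and 5.45 in mock. AT5G19890, a peroxidase gene, had 111 and 49.6 normalized counts with DPA and 47.0 and 6.54 in mock. These 3 genes averaged 24.7, 27.8 and 26.8 in mock, in the order named, so they passed the filter only through DPA. In each of the 3 the mock library of higher size factor stood far above the other, and the limma estimate ran widely with 1 of the 4 libraries left out: from 1.11 to 4.21 log2 units for AT5G54370, from 1.04 to 4.03 for AT1G52070 and from 0.65 to 3.32 for AT5G19890, each time highest without the mock library of size factor 0.979. AZI1, a gene of systemic defence priming, was uneven with DPA instead, with 894 and 228 normalized counts with DPA and 204 and 192 in mock. AACT1, an anthocyanin acyltransferase gene, had 331 and 222 normalized counts with DPA and 112 and 82.9 in mock. That its DPA libraries lay above mock was required by the way these genes were picked. AACT1 exceeded the PA libraries by 2.37 log2 units (limma adjusted p = 0.00394) and the ABA libraries by 5.60 log2 units (limma adjusted p = 1.56e-06), with 38.5 and 69.0 normalized counts with PA and 4.35 and 4.90 with ABA. Both comparisons reuse the DPA values by which AACT1 was picked.

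Among genes that were lower with DPA, AT5G13130, an ATPase-fold gene, had 46.9 and 53.7 normalized counts with DPA and 107 and 106 in mock, with even pairs. AT5G66053 and AT5G66052, 2 overlapping genes of unknown function on opposite strands, had 37.0 and 47.5, and 108 and 159, normalized counts with DPA, against 66.4 and 124, and 182 and 380, in mock. All 147 bases of AT5G66053 lie within AT5G66052, so both may count the same reads. AT1G73120, an F-box gene, had 104 and 123 normalized counts with DPA and 152 and 306 in mock. Few genes had more than a handful of reads in 1 group and none in the other. Of 698 genes with reads with DPA and none in mock, 2 had at least 10 reads over both DPA libraries, with 13 at most. Of 634 genes with reads in mock and none with DPA, 3 had at least 10, with 11 at most.

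The ABA response genes lay near mock with DPA. RD29B, a hydrophilic stress protein, had 130 and 190 normalized counts with DPA, 863 and 813 with PA, 26232 and 24838 with ABA, and 137 and 208 in mock. The DPA and mock libraries overlapped, and PA and ABA lay far above both. The limma difference between DPA and mock was -0.10 with a 95% interval of -0.56 to 0.35 (adjusted p = 0.955), whereas DPA minus PA was -2.41 (adjusted p = 0.000337) and DPA minus ABA was -7.34 (adjusted p = 2.87e-08). The dehydrin gene RAB18 differed from mock by -0.28, the cold and ABA gene KIN1 by 0.18, and RD29A by -0.20 with an interval of -0.46 to 0.06, all in limma with overlapping libraries. With 1 of the 4 libraries left out, RAB18 ran from -0.55 to -0.01, RD29A from -0.35 to -0.05 and KIN1 from -0.11 to 0.47. The extremes came from leaving out a DPA library for RAB18 and a mock library for RD29A and KIN1. RD29B changed sign as well, to 0.20 without the mock library of size factor 0.917 and to 0.17 without the DPA library of size factor 1.00. LEA4-5, a late embryogenesis abundant protein, had 23.0 and 23.7 normalized counts with DPA and 14.3 and 19.6 in mock, a limma difference of 0.46 with an interval of 0.06 to 0.85 (adjusted p = 0.874). That difference was 0.24 without the mock library of size factor 0.979 and 0.67 without the other. The same gene had 202 and 246 normalized counts with PA and 3099 and 3545 with ABA, and DPA minus ABA was -7.09 in limma (adjusted p = 1.52e-08).

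**Figure D3:**
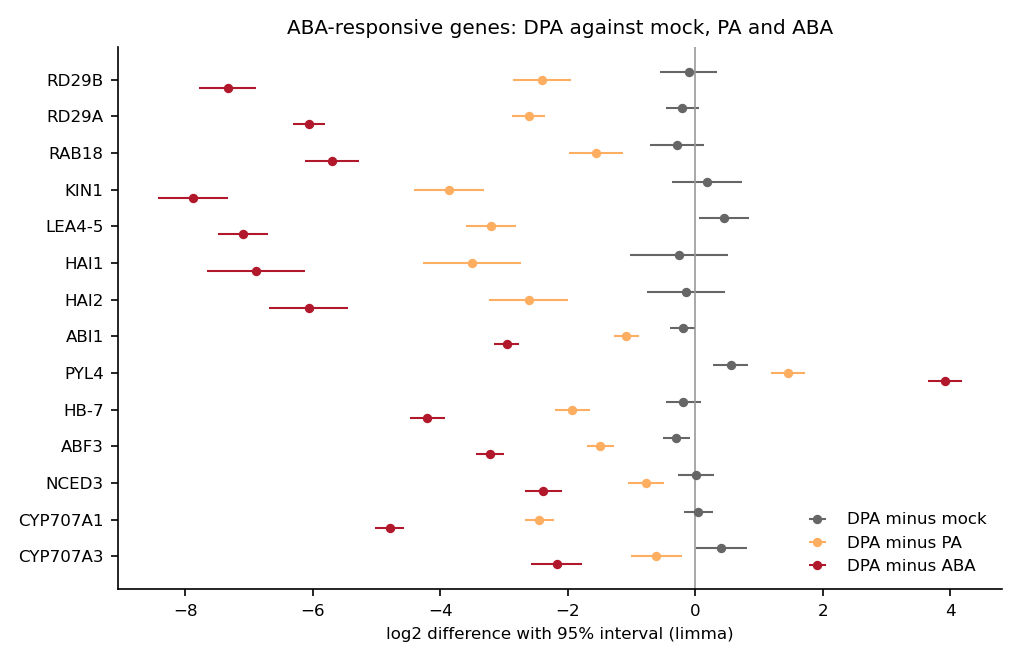
log2 difference of DPA from mock, PA and ABA for 14 ABA-responsive genes, as limma estimates (points) with 95% intervals (lines). The DPA minus mock estimates lie between -0.30 and 0.56, and the DPA minus ABA estimates between -7.87 and -2.17 except for the receptor gene PYL4 at 3.92.

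The whole list of 29 LEA and dehydration-responsive genes had a median log2 difference from mock of 0.01 with DPA, 1.29 with PA and 3.73 with ABA, beside a median of 0.00 over all 19617 genes with DPA. With DPA 16 lay above 0 and 13 below, and 4 had an unadjusted limma p under 0.05. RCI2A and LTP3 were lower, beside 2.76% of the genes tested, and LTP4 and LEA4-5 higher, beside 2.75%. In the authors' deposited table only RCI2A on this list had an unadjusted p under 0.05. Between compounds the list stood apart: 21 of 29 were lower with DPA than with PA and 29 of 29 lower than with ABA at a limma adjusted p under 0.05. XERO1 and EM1, averaging 4.58 and 9.21 normalized counts with DPA and 4.26 and 9.03 in mock, passed the filter only through PA and ABA. That filter was a mean of 10 over the 8 libraries, so for both genes a level lower with DPA than with ABA was fixed in advance. Over all genes tested, limma called 752 of 19617 genes (3.83%) between DPA and PA, 273 higher (1.39%) and 479 lower (2.44%), and 6692 (34.1%) between DPA and ABA, 3045 higher (15.5%) and 3647 lower (18.6%). Upper-quartile scaling gave 4237 higher and 2964 lower between DPA and ABA. The count between DPA and PA depended on single libraries and ran from 173 without the PA library of higher size factor to 1812 without the mock library of size factor 0.917. Of 19 ABA-related transcription factors, 10 were lower with DPA than with PA and 18 lower than with ABA. MYB41, averaging 1.02 normalized counts with DPA, 0.51 in mock and 117 with ABA, also passed the filter only through PA and ABA. For HB-7, a homeodomain factor of drought, DPA minus PA was -1.93 (limma adjusted p = 7.47e-05), with 445 and 546 normalized counts with DPA, 1730 and 2039 with PA and 514 and 612 in mock. For ABF3, a bZIP factor that binds the ABA response element, DPA minus PA was -1.49 (limma adjusted p = 7.47e-05) with 320 and 318 normalized counts with DPA, 896 and 893 with PA and 355 and 433 in mock. The PA and ABA comparisons with mock share the mock libraries with the DPA comparison.

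Genes that make and remove ABA lay close to mock, with no call. Of 8 catabolism and conjugation genes, 5 had both DPA libraries above both mock libraries, beside 16.1% of the genes tested and 4 of 10 reference genes. In 1 both lay below, beside 17.1% of the genes tested and 2 of 10 reference genes. The median difference of the list was 0.07. NCED3, which encodes the cleavage enzyme at the committed step of ABA synthesis, had 101 and 100 normalized counts with DPA and 89.9 and 110 in mock, against 538 and 517 with ABA. CYP707A1, the hydroxylase that starts the route to PA and DPA, had 102 and 100 normalized counts with DPA, 569 and 544 with PA, 2616 and 3063 with ABA, and 100 and 94.8 in mock. The limma interval of DPA minus mock for CYP707A1 ran from -0.18 to 0.28, and DPA minus PA was -2.45 (adjusted p = 6.18e-06). CYP707A3 differed from mock by 0.41 with an interval of 0.01 to 0.81 (limma adjusted p = 0.874) and was not separated from PA (-0.61, limma adjusted p = 0.0985). CYP707A2 had 51.9 and 45.4 normalized counts with DPA and 60.3 and 67.6 in mock, in the opposite direction. ABH2, the reductase that makes DPA, was close to undetected, with 3.00 and 1.03 normalized counts with DPA and 4.09 and 0 in mock, too few reads to compare.

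Of the ABA pathway lists, the receptors had the highest median with DPA, though none of them was called. PYL5 (chr5:1608988-1610527) had 231 and 257 normalized counts with DPA, 57.4 and 67.8 with PA, 22.6 and 15.9 with ABA, and 146 and 136 in mock. PYL4 (chr2:16049918-16051356) had 2679 and 3188 normalized counts with DPA, 962 and 1176 with PA, 202 and 184 with ABA, and 2089 and 1892 in mock. PYL6 had 59.9 and 36.1 normalized counts with DPA, 5.14 and 8.18 with PA, 1.74 and 1.22 with ABA, and 23.5 and 12.0 in mock. In all 3 both DPA libraries were the highest of the 8 libraries and both ABA libraries the lowest. In limma PYL5 exceeded mock by 0.78 (95% interval 0.34 to 1.23), PYL4 by 0.56 (0.29 to 0.82) and PYL6 by 1.41 (0.29 to 2.54), each with an adjusted p of 0.874.

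PYR1 differed from mock by 0.28 and PYL1 by 0.33 log2 units in limma, with DPA libraries above both mock libraries in each. Of 9 receptors measured, 7 lay above 0, beside 51.5% of the genes tested. Their median was 0.28 with DPA, -0.41 with PA and -1.27 with ABA. An unadjusted limma p under 0.05 was reached by 5, all higher, beside 2.75% of the genes tested. In 6 of 9 both DPA libraries lay above both mock libraries, beside 16.1% of the genes tested and 4 of 10 reference genes. In 1, PYL7, both lay below, beside 17.1% of the genes tested and 2 of 10 reference genes, with 180 and 176 normalized counts with DPA and 183 and 238 in mock. Against PA, 5 of 9 were higher with DPA (PYR1, PYL1, PYL4, PYL5 and PYL6) at a limma adjusted p under 0.05, beside 1.39% of the genes tested. Against ABA 7 were higher, beside 15.5%, and 1, PYL9, lower, beside 18.6%, at the same threshold. PYL4 exceeded PA by 1.46 log2 units (limma adjusted p = 0.000303), and PYL5 exceeded PA by 1.95 (limma adjusted p = 0.00108).

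The clade A PP2C, the phosphatases that the receptors block, mostly lay below mock with DPA. Of 9 measured, 8 lay below 0 in limma, with a median of -0.19 with DPA, 0.98 with PA and 3.37 with ABA. Over all genes tested 51.5% lay above 0 with DPA. An unadjusted limma p under 0.05 was reached by 3, all lower, beside 2.76% of all genes. HAI3, counted among the 8, averaged only 2.07 normalized counts with DPA. Its log2 fold change in the authors' deposited table was 0.37, so its side of 0 depended on the method. The 1 gene above 0, AHG1, averaged only 3.08 normalized counts with DPA. PP2CA had 399 and 402 normalized counts with DPA and 481 and 633 in mock, a limma difference of -0.46 (adjusted p = 0.874). HAB1 had 685 and 705 normalized counts with DPA and 783 and 836 in mock, a difference of -0.22. ABI1 had 550 and 574 normalized counts with DPA and 610 and 678 in mock, a difference of -0.19. In all 3 both DPA libraries lay below both mock libraries, for PP2CA and ABI1 by less than the 2 mock libraries differed. On the whole list both lay below in 4 of 9, beside 17.1% of the genes tested and 2 of 10 reference genes. Both lay above in 0 of 9, beside 16.1% of the genes tested and 4 of 10 reference genes. HAI1 had 24.97 and 25.8 normalized counts with DPA and 18.4 and 50.1 in mock, where DPA lay between the mock libraries, and it was called lower (-0.95, limma adjusted p = 0.0202) only when the mock library of size factor 0.979 was left out, and was 0.44 without the other mock library. Against PA 8 of 9 phosphatases were lower with DPA at a limma adjusted p under 0.05, beside 2.44% of the genes tested. Against ABA 9 of 9 were lower, beside 18.6%. The exception against PA was AHG1, at under 10 normalized counts with DPA and PA. AHG1 passed the filter, a mean of 10 over the 8 libraries, only through ABA, where it averaged 36.9. HAI3 passed only through PA and ABA, where it averaged 38.8 and 671. For both genes a level lower with DPA than with ABA was thus fixed in advance. DPA minus PA was -3.51 for HAI1 (limma adjusted p = 0.000831) and -2.61 for HAI2 (limma adjusted p = 0.00123). The mock libraries also differed over this list, by a median of -0.58 log2 units for the library of higher over that of lower size factor, and the part of that difference in the phosphatase shift was not tested. The median of the receptors differed by 0.10 between the mock libraries.

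**Figure D4:**
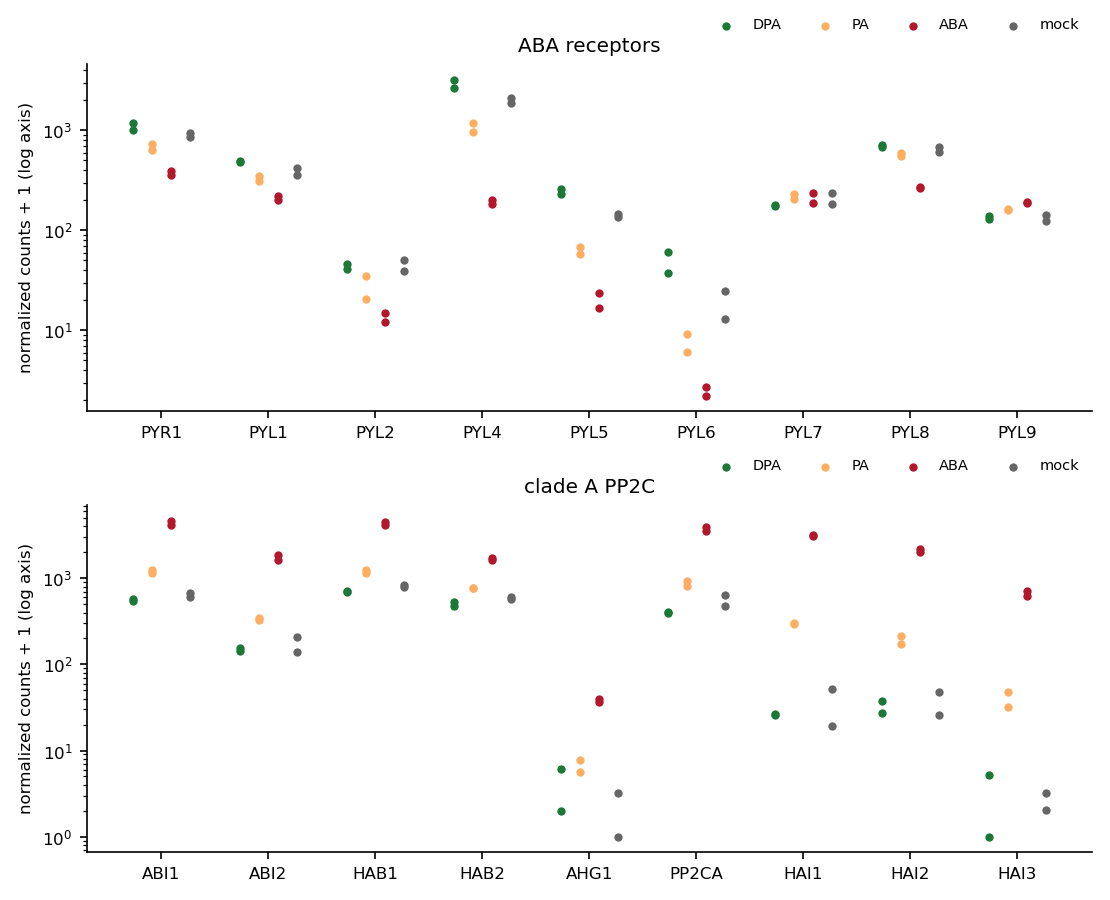
Normalized counts plus 1 per library (log axis) of 9 ABA receptors and 9 clade A PP2C genes, with 1 point per library, coloured by group. For PYL4, PYL5 and PYL6 both DPA points are the highest and both ABA points the lowest, and every PP2C has its 2 highest points with ABA.

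The SnRK2 kinases, which carry the signal onward, had a median of -0.01 over 10 genes and no gene with an unadjusted limma p under 0.05. The 6 ABA synthesis genes had a median of -0.04 and 5 transport genes a median of 0.04.

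Outside the ABA pathway several lists had most members above mock with DPA, none with a call, and the detoxification and early response lists are described before the others. Over all 19617 genes tested 51.5% lay above 0, and of the 10 reference genes 5 did. Of 25 xenobiotic detoxification genes, which encode glutathione S-transferases, glycosyltransferases and related enzymes, 23 lay above 0, with a median of 0.42 with DPA, 0.44 with PA and 1.91 with ABA. The DPA libraries themselves differed over this list by a median of 0.48 log2 units, higher in the library of higher size factor, and the mock libraries by 0.18, and their part in the shift was not tested. In 10 of 25 both DPA libraries lay above both mock libraries, beside 16.1% of the genes tested and 4 of 10 reference genes. An unadjusted limma p under 0.05 was reached by 8, all higher, beside 2.75% of the genes tested. None passed the adjusted threshold. UGT73C1, a glycosyltransferase, had 23.0 and 13.4 normalized counts with DPA, 18.8 and 15.2 with PA, 83.5 and 84.5 with ABA, and 9.19 and 6.54 in mock. UGT74E2, a glycosyltransferase of the auxin indole-3-butyric acid, had 22.0 and 21.7 normalized counts with DPA, 27.4 and 23.4 with PA, 823 and 750 with ABA, and 4.09 and 16.4 in mock. In both genes the DPA libraries lay above both mock libraries and far below ABA. GSTU7 had 359 and 309 normalized counts with DPA and 254 and 218 in mock. Against PA 1 of 25 was higher with DPA, the reductase gene OPR1, beside 1.39% of the genes tested. OPR1 had 1181 and 973 normalized counts with DPA, 628 and 712 with PA, and 841 and 761 in mock (limma difference from PA of 0.68, adjusted p = 0.0247). GSTU4 was lower than with PA (limma difference of -1.79, adjusted p = 0.0412), beside 2.44% of the genes tested. Against ABA 17 were lower with DPA, beside 18.6% of the genes tested, and 1, OPR1, higher, beside 15.5%.

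Of 21 touch, cold and wound early genes, 19 lay above 0 with DPA, with a median of 0.28 with DPA, 0.15 with PA and 0.78 with ABA. In 10 both DPA libraries lay above both mock libraries, beside 16.1% of the genes tested and 4 of 10 reference genes. The 3 with an unadjusted limma p under 0.05 were the WRKY factors WRKY40, WRKY18 and WRKY33, all higher, beside 2.75% of the genes tested. WRKY40, a repressor of defence and ABA genes, had 43.9 and 42.3 normalized counts with DPA and 18.4 and 19.6 in mock, with limma giving 1.14 (95% interval 0.52 to 1.76, adjusted p = 0.874). WRKY18 had 133 and 257 normalized counts with DPA and 106 and 125 in mock. JAZ1, a repressor of jasmonate signalling, had 311 and 265 normalized counts with DPA and 203 and 161 in mock, while its list of 20 jasmonate genes had a median of 0.10 with 15 above 0 and 5 below.

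Nitrate transport and assimilation genes had a median of 0.23 over 12 genes, with 11 above 0. LBD38, a repressor of nitrate-responsive genes, had 511 and 420 normalized counts with DPA, 241 and 219 with PA, 111 and 122 with ABA, and 414 and 330 in mock, and exceeded PA by 1.01 log2 units (limma adjusted p = 0.0059). NRT3.1, a partner of high-affinity nitrate transporters, had 252 and 177 normalized counts with DPA and 176 and 109 in mock, with the nearest DPA and mock libraries all but level. The mock libraries differed over this list by a median of 0.36 log2 units, and its part in the shift was not tested. Early auxin response genes had a median of 0.15 over 13 genes with 12 above 0, and alpha-expansins, which loosen cell walls, a median of 0.09 over 17 genes with 14 above 0. Heat shock genes had a median of 0.15 over 13 genes with 8 above 0, iron status genes 0.13 over 16 genes with 12 above 0, and salicylate-associated defence genes -0.07 over 10 genes with 4 above 0. Type-A response regulators of cytokinin signalling had a median of -0.00 over 7 genes, circadian clock genes -0.03 over 13, light harvesting and Rubisco genes -0.00 over 18, and 10 reference genes used to normalize qPCR 0.03.

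**Figure D5:**
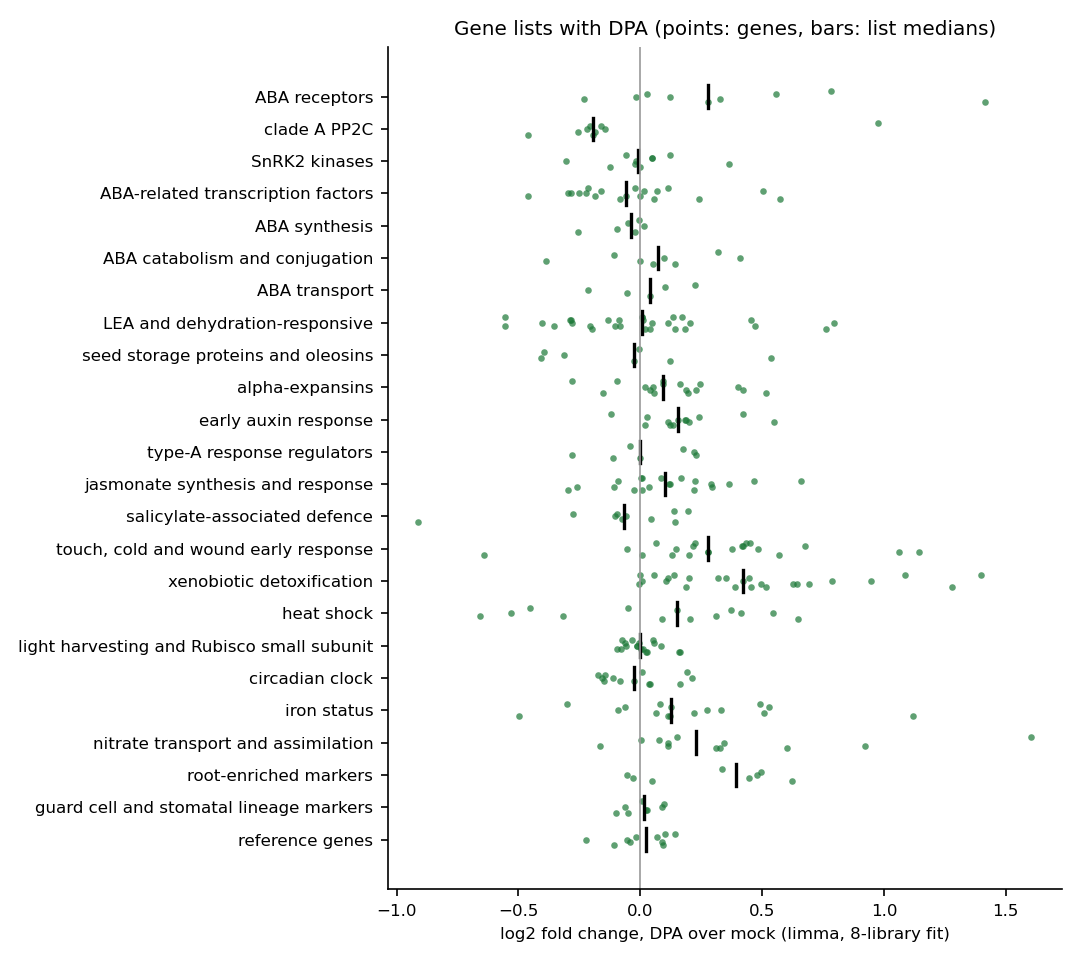
log2 fold change of DPA over mock (limma estimate, x axis) of each measured gene on 24 lists, with a bar at the list median. Medians run from -0.19 for clade A PP2C to 0.42 for xenobiotic detoxification, and no gene on any list passed the adjusted threshold.

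The mock libraries differed from each other in tissue markers. Of 8 root-enriched markers measured, 6 lay above 0 with a median of 0.39, but the mock libraries differed by a median of 1.12 log2 units over the same list and no marker had both DPA libraries outside the mock range. COBL9, a root hair gene, had 49.9 and 51.6 normalized counts with DPA and 64.4 and 19.6 in mock. CASP1, of the endodermal Casparian strip, had 177 and 85.7 normalized counts with DPA and 119 and 53.4 in mock. The summed level of the root list, dominated by PYK10, was 35905 and 29667 with DPA and 32770 and 30462 in mock. Seed storage genes had a median of -0.03 over 7 genes, with the mock libraries apart by a median of -1.41 log2 units and summed levels of 1112 and 1761 with DPA and 783 and 2111 in mock. Guard cell and stomatal lineage markers had a median of 0.02 over 8 genes, with summed levels of 1751 and 1676 with DPA and 1564 and 1885 in mock. The part of these differences in the DPA comparison was not tested.

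With the mock library of size factor 0.979 left out, limma called 129 genes between DPA and mock, 83 higher and 46 lower, and with any other single library left out it called 0. Of the 129 genes, 66 had mock libraries at least 2-fold apart and 90 had DPA and mock libraries that overlapped when both mock libraries were kept. AT1G15125 (limma adjusted p = 0.0323) and AT3G15356 (limma adjusted p = 0.0116) were among them, and AT3G09250 was not (limma adjusted p = 0.283). Named as examples after their values were seen, EXT12, an extensin gene of the cell wall, was called higher in the fit without that library, with 647 and 457 normalized counts with DPA and 652 and 89.4 in mock. TPS04, a terpene synthase gene of defence, was called lower in that fit, with 0 and 1.03 normalized counts with DPA and 0 and 92.7 in mock. In both genes the DPA libraries lay near the mock library that was left out, and the other mock library stood apart.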

How the data were processed

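Polyadenylated RNA of whole seedlings was sequenced, with 2 libraries in each of 4 groups. The authors deposited a table for each compound against mock, with no counts per library here. TopHat 1.4.1, HTSeq, DESeq 1.8.3 and the TAIR10 genome are named in the submitters' processing notes, without roles. The deposited group means are a signal, counts divided by a size factor and averaged over 2 libraries, per the file headers. The deposited fold values are ratios of these means, whose log2 was computed here. The deposited p-values, with adjusted p, are the authors', and a Benjamini-Hochberg adjustment matched them within 3.06e-13 with the 5 rows that name no gene kept. Reads in no feature were 48.4% of the total in both groups, and ambiguous reads 0.283% with DPA and 0.278% in mock.

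Each deposited mean adds 2 whole read numbers, each multiplied by a constant of its library, so all values above 0 (100%) could be split into the reads of both libraries, a step tested on simulated data. The planned count model was not run, since the files hold group means. The deposited adjusted p under 0.05 made the calls, and limma 3.58.1 (R 4.3.3) was fitted with trend to log2 of the normalized counts plus 1, over genes with a mean of at least 10, in 8 libraries, with 4 residual and 5.37 prior degrees of freedom. DPA was set against PA and ABA in the same fit, 2 pairs, each adjusted over all genes. With 2 libraries in each group, every p-value rests on few replicates. The limma spread of a gene was estimated over all 4 groups, so uneven PA or ABA libraries also widen its DPA interval.

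Positions come from the TAIR10.1 annotation, which held 31912 of the loci. Named genes were all called genes, the 10 smallest p-values not called, chosen ABA genes, and the 5 highest and 5 lowest log2 fold changes. The highest and lowest were taken among genes with a mean of at least 50 over the DPA and mock libraries, where these libraries did not overlap. For genes picked by their DPA and mock values, comparisons with PA and ABA reuse the same DPA libraries and are a description. Other genes on the 24 lists were picked as examples after their values were seen. The members and lists were chosen with earlier results of these data known. Alternatives were other thresholds, filters, pseudocounts, scalings, libraries in the fit and each library left out. Leaving out PA or ABA libraries was added after seeing the data.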

Additional observations from a re-analysis of the deposited data

How the results depend on the processing

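The 3 calls between DPA and mock became 1, AT1G15125, when a change of at least 2-fold was also required, and 0 by limma. At an adjusted p under 0.01 there were 2, without AT3G15356, and at 0.1 there were 3. By limma the count between DPA and mock was 0 under other pseudocounts, filters and scalings and in a fit of these 4 libraries alone, and 0 to 129 with 1 library left out. The count between DPA and PA, 752 with all libraries, ran from 173 to 1812 with 1 library left out, with 1795 and 1812 without a mock library. The count between DPA and ABA, 6692, ran from 4586 to 7552. Where leaving out a library left 1 in a group, the lone library was assumed to vary like the other groups. Of 234 single-gene values under alternatives, 166 kept their side of the threshold (and, for genes not called, moved by less than 1 standard error), 44 moved by more, 22 lost the call and 2 gained it. No called gene changed sign. Genes that were not called did so in 8 values, all with 1 library left out, in 5 genes: RD29B (-0.10 with all libraries, 0.17 and 0.20), KIN1 (0.18, against -0.08 and -0.11), HAI1 (-0.26, against 0.44), HAI2 (-0.14, against 0.09 and 0.31) and NCED3 (0.01, against -0.13). No paired analysis was possible because the columns carry no replicate numbers. Depth limits genes with means under 50, where the interval of the DPA effect reached a median of 0.82 log2 units to each side.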
